A study of Mus musculus with 24 samples.

Results

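The response of Smarcc2-deficient neurons to membrane depolarization was measured in 6 of the 24 RNA-seq libraries of the series, 3 from resting cultures and 3 from cultures given KCl. Members were taken by title: Smarcc2 knockout with empty vector, at 18 days in vitro (DIV18), either left unstimulated or depolarized. The cells were primary mouse cortical neurons from embryonic day 16.5, in which CRISPR guide RNAs against Smarcc2 had been introduced together with an empty vector. All cultures were silenced overnight with 1 µM tetrodotoxin, a sodium channel blocker, and 100 µM D-AP5, an NMDA receptor blocker. KCl at 50 mM was then applied for 30 min, whereas resting wells had medium removed and restored without additions. The comparison groups at DIV18 were a non-targeting guide with vector (2 resting, 2 KCl) and the same Smarcc2 knockout with wild-type Smarcc2 added back (2 resting, 3 KCl). Unmodified neurons at DIV7 (2 resting, 2 KCl for 30 min, all with 0.1% DMSO) were measured from poly(A)-selected RNA, whereas the DIV18 libraries came from total RNA depleted of ribosomal RNA. Per the labels' protocols, the cortex of each embryo counted as a biological replicate. The labels do not say what share of the cells carried the guides.

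Depolarization opens voltage-gated calcium channels, and the calcium that enters activates kinases that phosphorylate CREB, bound at cyclic AMP response elements, and the partners of serum response factor, bound at CArG boxes. A first set of genes, the immediate early genes, is transcribed without new protein synthesis and encodes mostly transcription factors of the FOS, JUN, EGR, NR4A and NPAS families. Secreted factors, synaptic proteins and feedback regulators follow later. Smarcc2 encodes BAF170, a scaffold subunit of the BAF (SWI/SNF) complex, which moves nucleosomes and keeps enhancers accessible in neurons. The comparison of KCl with rest in the knockout with vector shows which of these genes moved when Smarcc2 was depleted.

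The 6 libraries held 14510199 to 19177644 estimated counts, and levels are given as CPM, counts scaled to library size with TMM factors and not per length. Smarcc2 itself (ENSMUSG00000025369.15, chromosome 10) was at 47.1, 49.8 and 64.1 CPM at rest and at 49.1, 47.5 and 60.0 CPM after KCl, which was 21.4% of the non-targeting mean at rest and 18.8% after KCl. The RNA was thus reduced but present. KCl did not move it detectably (log2 change -0.04, SE 0.13, adjusted p 0.947). Neuron markers were abundant, with 10 of 10 tested and a summed level of 4448 to 5537 CPM, and astrocyte markers were present at 839 to 1385 CPM. Microglia (3.55 to 5.81 CPM; C1qa, Itgam, P2ry12 and Tmem119 were too low to be tested) and proliferating cells (2.64 to 6.05 CPM) left little RNA. Clca1, a gene the protocol names as a sign of excitotoxicity, was at 0.0539 to 0.456 CPM in the 6 libraries.

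Replicate 3 stood apart in both states. At rest it had the most mitochondrial RNA, 54564 CPM against 37446 and 29384 CPM in replicates 1 and 2, and the least Gfap, the astrocyte filament protein, at 37.3 CPM against 169.6 and 132 CPM. The mean chi-square per gene was 16.4 between resting replicates 1 and 2, and 29.9 and 37.2 between these and replicate 3, so no pair of libraries agreed within sampling noise. After KCl, replicate 3 was the lowest library for all 8 called genes of the early lists. Calls were also counted without these libraries.

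**Figure D1:**
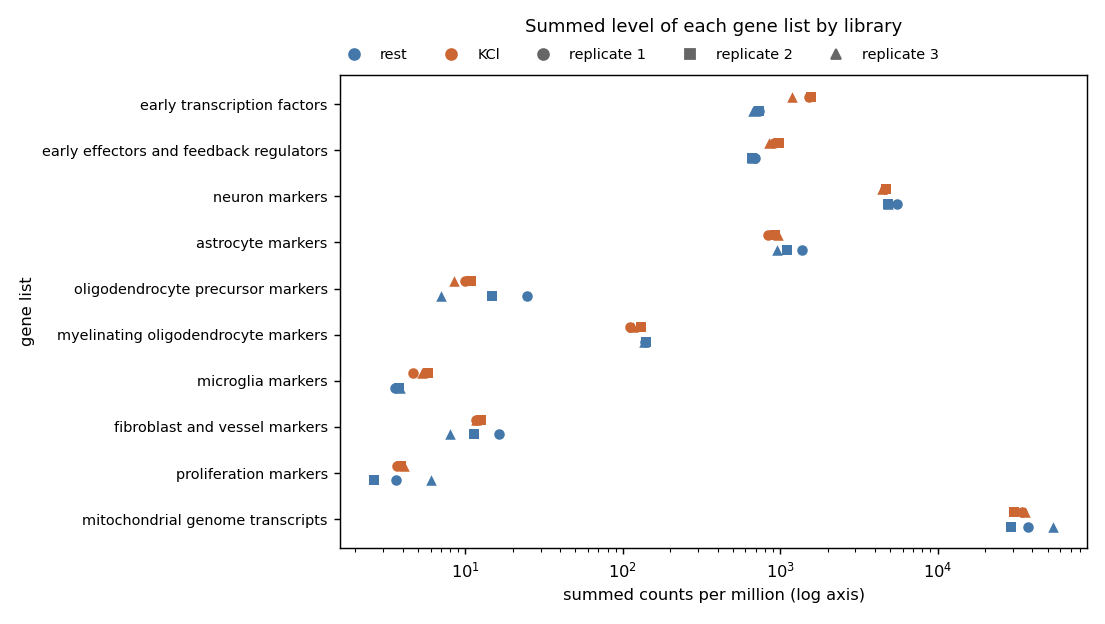
Summed level of each gene list (x axis, CPM on a log axis) in the 3 resting and the 3 KCl libraries of the Smarcc2 knockout with vector, 1 marker per library. The early transcription factors lie higher in every KCl library, at 1185 to 1570 CPM against 673 to 736 CPM at rest, and resting replicate 3 has the highest mitochondrial level.

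Promoter sequence is shown for 5 genes that rose after KCl and held the motif described here, because the factors that depolarization activates bind short motifs near gene starts. RefSeq windows (build GRCm38.p6) were matched for 11 of the 15 called symbols. The lines below give up to 250 bases before the annotated start, 5′ to 3′, without bases that GENCODE places inside the gene (6 bases for Fosb). Capitals mark the cyclic AMP response element core TGACG on either strand (TGACG or CGTCA), which the full palindrome TGACGTCA contains in both directions.
Fos, chr12:85473640-85473889, plus strand: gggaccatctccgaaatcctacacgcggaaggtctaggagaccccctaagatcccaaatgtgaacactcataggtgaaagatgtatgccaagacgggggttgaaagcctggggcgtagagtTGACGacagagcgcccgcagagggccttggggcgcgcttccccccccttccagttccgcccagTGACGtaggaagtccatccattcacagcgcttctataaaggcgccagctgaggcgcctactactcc
Fosb, chr7:19310052-19310295, minus strand: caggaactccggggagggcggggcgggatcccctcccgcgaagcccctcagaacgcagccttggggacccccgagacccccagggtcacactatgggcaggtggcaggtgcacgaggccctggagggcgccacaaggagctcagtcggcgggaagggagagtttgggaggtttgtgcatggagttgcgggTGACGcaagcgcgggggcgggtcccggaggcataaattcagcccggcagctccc
Egr4, chr6:85513590-85513839, minus strand: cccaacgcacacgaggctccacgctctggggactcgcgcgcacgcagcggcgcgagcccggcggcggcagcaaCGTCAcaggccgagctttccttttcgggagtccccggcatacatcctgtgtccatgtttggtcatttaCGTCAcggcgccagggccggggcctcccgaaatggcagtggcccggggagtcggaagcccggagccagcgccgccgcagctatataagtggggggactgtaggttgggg
Junb, chr8:84978749-84978998, minus strand: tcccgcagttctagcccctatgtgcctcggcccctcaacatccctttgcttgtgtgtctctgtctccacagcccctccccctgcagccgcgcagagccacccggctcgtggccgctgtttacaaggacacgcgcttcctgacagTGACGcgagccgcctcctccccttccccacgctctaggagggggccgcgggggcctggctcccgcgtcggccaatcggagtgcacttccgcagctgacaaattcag
Wsb1, chr11:79254696-79254945, minus strand: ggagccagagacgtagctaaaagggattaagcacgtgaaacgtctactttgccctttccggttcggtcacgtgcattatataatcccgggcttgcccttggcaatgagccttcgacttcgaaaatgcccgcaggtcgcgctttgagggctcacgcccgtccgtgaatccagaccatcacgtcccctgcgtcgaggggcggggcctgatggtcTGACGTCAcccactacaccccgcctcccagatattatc
Fos held the core at 129 and 66 bases before its start and a TATAAA box at 33, Fosb held the core at 60, Egr4 at 177 and 109, and Junb at 106. Wsb1 was the only called gene whose window held the full palindrome, which spans overlapping cores at 38 and 35 bases before the start. The window of Npas4 held a pair of cores at 179 and 169 bases, and lies inside the longer GENCODE gene model. Of the called genes with a window, Mbd6, Sema4g and Plekhn1, which rose, and Pcp4 and Zc3h11a, which fell, had no core. However, the Plekhn1 windows lay wholly inside the GENCODE gene, as did 243 of the 250 bases of the Sema4g window. Sequence before the GENCODE start was therefore not searched for Plekhn1, and only 7 bases of it were searched for Sema4g. The core was found in 6 of the 11 called genes with a window (54.5%) and in 27 of 41 members of the early lists (65.9%), against 19.8% of all 27025 genes with a window. The excess was not particular to this motif. The EGR site GCGNGGGCG (N, any base) was found in 18.2% and 29.3% of these sets, against 5.33% of all genes. The background was not matched for base composition or expression, and the cause of either excess was not tested. No CArG box was found in the windows of these 11 called genes, against 9.76% of the early-list genes and 1.62% of all genes. Egr1, Arc, Ier2 and Gm47075 had no window, and sequence more than 250 bases before a start was not searched. Whether the called genes have CArG boxes elsewhere was therefore not tested. Both strands were searched, and a match describes only these letters.

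The number of genes called after KCl in the knockout with vector depended on the tool and the filter. Of 20940 genes tested, 15 were called at an adjusted p under 0.05 (0.0716%), 13 higher (0.0621%) and 2 lower (0.00955%), by edgeR after the low-count filter. DESeq2 called 48 (36 higher, 12 lower), and edgeR without the low-count filter called 515, with more lower (289) than higher (226); all 15 genes were among the calls of both. Of the 13 that rose, 8 belonged to the early lists, 7 of them transcription factors or nuclear regulators and 1, Arc, a synaptic effector. The other 5 that rose were Wsb1, Mbd6, Sema4g, Plekhn1 and Gm47075, and the 2 that fell were Pcp4 and Zc3h11a. The 3 KCl libraries lay wholly above or wholly below the 3 resting libraries in each of the 15 genes, as they did above in 8.21% and below in 7.49% of all genes. With the replicate number as a block the count was 9 (8 higher, 1 lower). Leaving out 1 library gave 5 calls without resting replicate 1, 7 without resting replicate 3, 6 and 7 without KCl replicates 1 and 2, and 10 without either of the others, and 6 genes were called without replicate 3 in both states. Fosb, Egr1, Egr4 and Npas4 were called in all 14 alternatives, Fos and Wsb1 in 13, Zc3h11a in 10, Junb in 8 and the other 7 genes in 2 to 6.

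**Figure D2:**
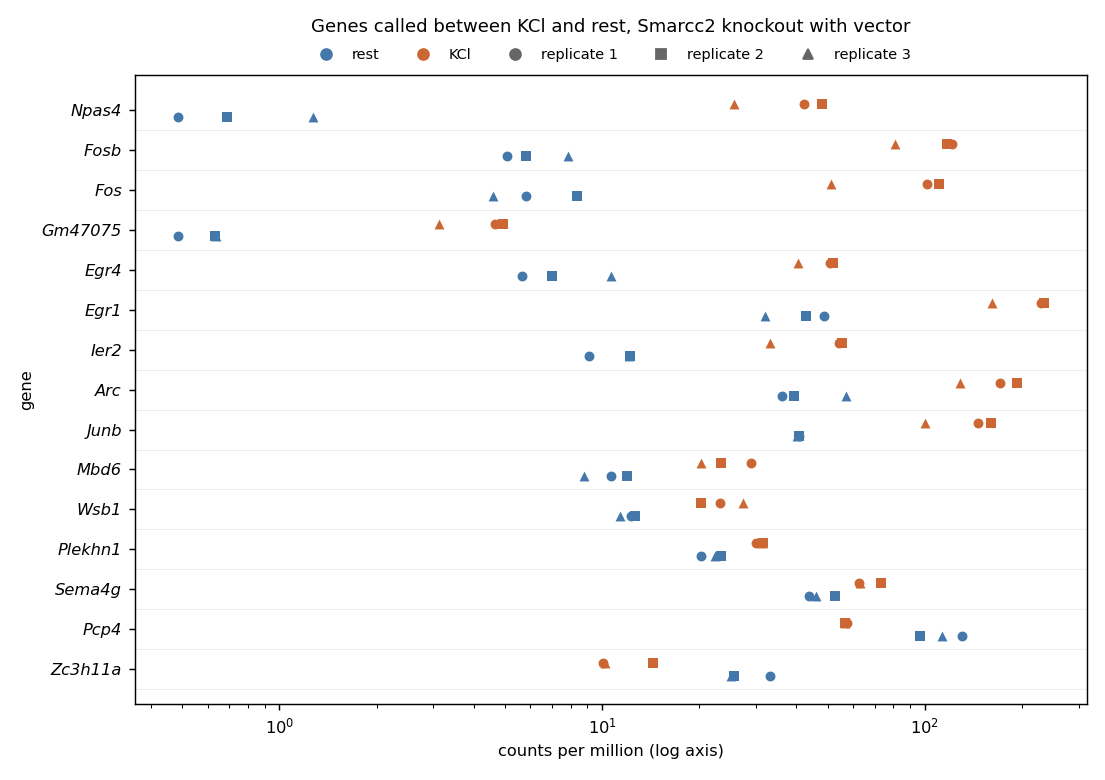
Level of each of the 15 called genes (x axis, CPM on a log axis) in the 3 resting and 3 KCl libraries of the Smarcc2 knockout with vector, with 1 marker shape per replicate. Npas4 goes from 0.485 to 1.27 CPM at rest to 25.6 to 48.2 CPM after KCl, and Pcp4 and Zc3h11a lie lower after KCl.

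Npas4 (chromosome 19, 4984355 to 4990316), a neuron-specific factor that responds to calcium rather than to growth factors, gave the largest log2 change among the called genes. It was at 0.485, 0.686 and 1.27 CPM at rest and at 42.1, 48.2 and 25.6 CPM after KCl. The log2 change was 5.60 (SE 0.712, adjusted p 0.00139), a 48.4-fold rise. Within same-numbered cultures the ratio was 86.9, 70.3 and 20.1, so replicate 3 combined the highest resting level with the lowest level after KCl.

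Fosb (chromosome 7, 19302696 to 19310051) and Fos (chromosome 12, 85473890 to 85477273) encode partners of JUN proteins in the AP-1 dimer. Fosb was at 5.06, 5.8 and 7.83 CPM at rest and rose to 121.9, 117 and 80.6 CPM, a log2 change of 4.11 (SE 0.352, adjusted p 1.25e-05). Fos was at 5.82, 8.34 and 4.59 CPM at rest and rose to 101, 111 and 51.2 CPM, a log2 change of 3.80 (SE 0.522, adjusted p 0.00329). In both genes replicates 1 and 2 were close to each other after KCl and replicate 3 was lower. Junb (chromosome 8) was at 40.8, 40.8 and 40.2 CPM at rest and rose to 146.7, 160.7 and 99.9 CPM (log2 change 1.74, SE 0.277, adjusted p 0.0145). Ier2, a small nuclear early-response protein also on chromosome 8, rose from 9.10, 12.2 and 12.2 CPM to 54.2, 55.4 and 33.2 CPM (log2 change 2.09, SE 0.375, adjusted p 0.0387). Its call was lost with the replicate block (adjusted p 0.131; 7.06e-62 to 0.287 over 14 alternatives).

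The EGR zinc-finger factors bind GC-rich promoter sites. Egr1 (chromosome 18) was at 48.8, 42.9 and 32.0 CPM at rest and at 229.7, 235 and 162 CPM after KCl (log2 change 2.34, SE 0.272, adjusted p 0.000756). Egr4 (chromosome 6) was at 5.65, 7.02 and 10.7 CPM at rest and at 50.8, 52.0 and 40.5 CPM after KCl (log2 change 2.63, SE 0.32, adjusted p 0.000996). In both genes every KCl library was above every resting one. Egr2 was low, at 1.35, 1.85 and 1.08 CPM at rest and 3.33, 5.10 and 4.82 CPM after KCl, without overlap, and was not called (log2 change 1.62, adjusted p 0.262). Egr3 was at 25.6, 26.8 and 34.6 CPM at rest and 40.7, 43.7 and 36.6 CPM after KCl (log2 change 0.48, adjusted p 0.262). The orphan nuclear receptor Nr4a1 was at 2.58, 4.48 and 5.92 CPM at rest and 19.1, 14.7 and 14.7 CPM after KCl, and missed the threshold (log2 change 1.91, SE 0.389, adjusted p 0.0887). Its paralogues Nr4a2 and Nr4a3 had log2 changes of 0.16 and 0.02 and overlapping groups.

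Arc, which encodes a capsid-like protein that controls AMPA receptor uptake at synapses, was the called gene among the early effectors. It was at 36.2, 39.5 and 57.1 CPM at rest and at 171.7, 192.9 and 129 CPM after KCl (log2 change 1.90, SE 0.341, adjusted p 0.0387; chromosome 15, 74669083 to 74672570). With the replicate block its adjusted p was 0.131 (4.78e-81 to 0.287 over 14 alternatives). The MAP kinase phosphatase Dusp1 was at 14.6, 17.8 and 12.2 CPM at rest and 36.8, 38.2 and 24.2 CPM after KCl, and the matricellular factor Ccn1 at 5.71, 3.96 and 1.08 CPM and 9.63, 12.9 and 6.26 CPM. Neither gene overlapped between the groups and neither was called (adjusted p 0.274 and 0.413).

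Across the early transcription factors, 28 of 28 list members were tested, 7 were called higher, none lower, and 12 were higher at an unadjusted p under 0.05, against 5.47% of all genes. Their median log2 change was 0.476, against -0.0049 for all genes tested. Of the 26 early effectors and feedback regulators, 1 was called and 11 were higher at that p, with a median of 0.285. These 2 lists held no member lower at an unadjusted p under 0.05, against 4.88% of all genes. The 16 late and secreted activity genes had a median of 0.0281 and no call, against 0.0716% of all genes called. In that list the postsynaptic scaffold gene Homer1 was higher at an unadjusted p under 0.05 (log2 change 0.24, p 0.0045), and the peptide genes Pthlh (-1.52, p 0.0235) and Cort (-0.94, p 0.0324) were lower. Cort was at 65.6, 41.3 and 22.5 CPM at rest and at 23.7, 22.8 and 20.9 CPM after KCl, so resting replicate 3 lay within the KCl range. The neurotrophin gene Bdnf was at 12.4, 8.28 and 13.9 CPM at rest and 8.09, 11 and 16.6 CPM after KCl, with a log2 change of 0.04. The astrocyte marker sum was 949 to 1385 CPM at rest and 839 to 962 CPM after KCl, the neuron marker sum was 4822 to 5537 and 4448 to 4672 CPM, and their part in these results was not tested.

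**Figure D3:**
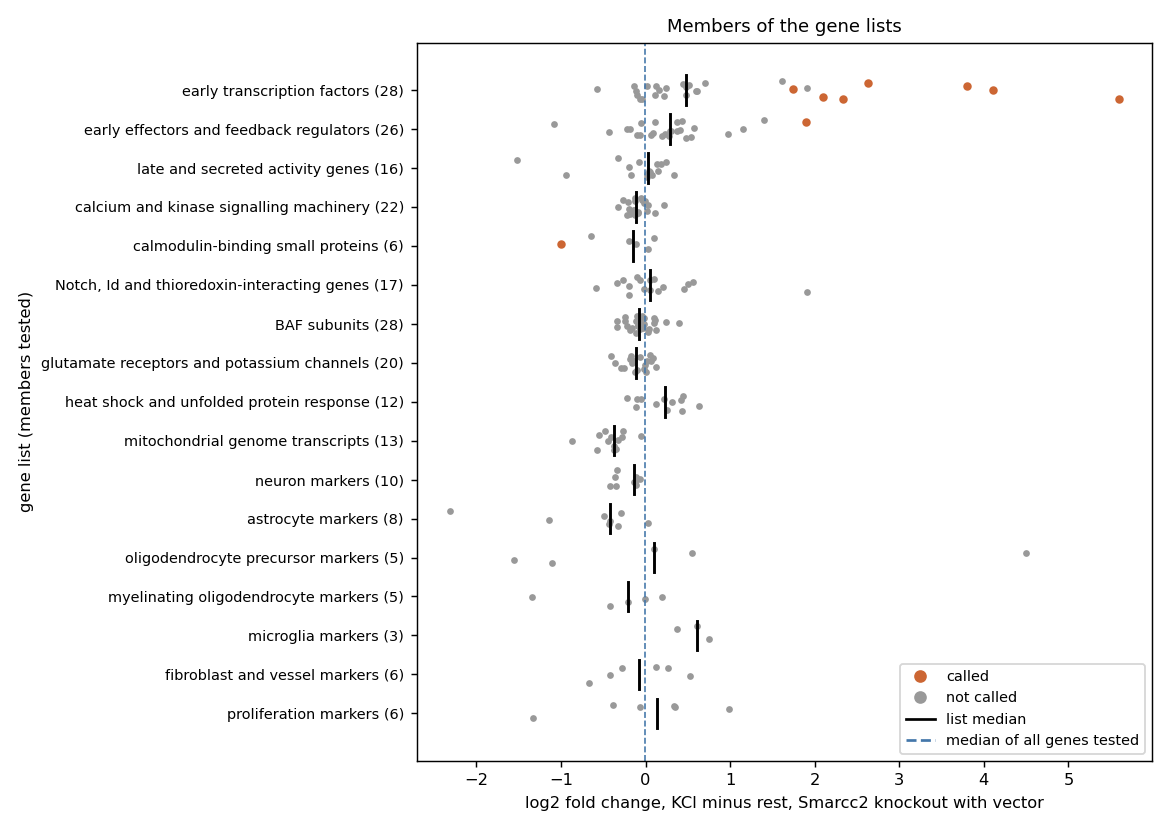
Log2 fold change between KCl and rest in the Smarcc2 knockout with vector (x axis) for each tested member of the gene lists, with called genes in colour, the median of each list as a bar and the median of all genes tested, -0.0049, as a dashed line. The early transcription factors reach 5.60 with a median of 0.476, and the late and secreted activity genes have a median of 0.0281.

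Among the 5 other genes that rose, Wsb1, the substrate-recognition part of a ubiquitin ligase, rose 1.94-fold and Mbd6 2.31-fold. Wsb1 (chromosome 11, 79239372 to 79254671) was at 12.3, 12.6 and 11.4 CPM at rest and at 23.1, 20.2 and 27.4 CPM after KCl, a log2 change of 0.96 (SE 0.134, adjusted p 0.00341). Unlike the 8 early genes, its highest KCl value was in replicate 3. Without replicate 3 in both states it was not called (adjusted p 0.127, the highest of its 14 alternatives). Mbd6, a member of the methyl-CpG-binding domain family, was at 10.7, 11.9 and 8.79 CPM at rest and 29.0, 23.4 and 20.3 CPM after KCl (log2 change 1.21, SE 0.213, adjusted p 0.0357; chromosome 10). The semaphorin gene Sema4g rose from 43.8, 52.5 and 46.1 CPM to 62.5, 73.2 and 63.0 CPM, and Plekhn1 from 20.2, 23.4 and 22.4 CPM to 29.9, 31.6 and 31.4 CPM. These were rises of 1.39-fold and 1.41-fold (adjusted p 0.0311 and 0.0491). With the replicate block Mbd6 (adjusted p 0.096; 4.36e-14 to 0.41 over 14 alternatives) and Plekhn1 (0.133; 0.00171 to 0.322) were not called.

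Gm47075 (ENSMUSG00000114169.1, chromosome 13, 93312041 to 93314055, plus strand) is a transcript record that awaits experimental evidence, inside an intron of Homer1, on the same strand and 12406 bases from the start of the host. It overlapped 0 Homer1 exons. It was at 0.485, 0.633 and 0.637 CPM at rest and at 4.66, 4.92 and 3.13 CPM after KCl (log2 change 2.85, SE 0.481, adjusted p 0.0249). A further such record, Gm47088, lies 17792 bases from the Homer1 start and was at 0.215, 0.791 and 0.255 CPM at rest and 1.79, 2.25 and 1.69 CPM after KCl, with no call (log2 change 2.15, adjusted p 0.262). Reads from these records and from unspliced Homer1 RNA cannot be told apart here. Homer1 as a whole was at 106.6, 107.4 and 129 CPM at rest and 134, 137 and 134.5 CPM after KCl. With the replicate block the adjusted p of Gm47075 was 0.113 (2.24e-11 to 0.212 over 14 alternatives).

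Pcp4, which encodes a small protein that binds calmodulin and speeds its exchange of calcium, fell after KCl. It was at 130.3, 96.7 and 113 CPM at rest and at 57.5, 56.7 and 56.4 CPM after KCl (chromosome 16, 96467606 to 96525793). The log2 change was -1.0 (SE 0.165, adjusted p 0.0223), a 2.00-fold fall. The KCl libraries were nearly equal, whereas the resting ones differed among themselves. With the replicate block it was not called (adjusted p 0.112; 2.03e-21 to 0.201 over 14 alternatives). Its relative Pcp4l1 was at 45.0, 27.2 and 21.3 CPM at rest and 23.2, 19.6 and 16.9 CPM after KCl, with overlap and no call (log2 change -0.65, adjusted p 0.395). Of the 6 calmodulin-binding small proteins listed, Pcp4 was the 1 called, and neurogranin (Nrgn) had a log2 change of -0.20.

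Zc3h11a, a zinc-finger protein that binds RNA, has a pair of gene records of the same symbol that overlap on the same strand. The called record (ENSMUSG00000116275.1, chromosome 1, 133619871 to 133661380) was at 33.2, 25.6 and 25.1 CPM at rest and at 10.0, 14.4 and 10.2 CPM after KCl (log2 change -1.28, SE 0.199, adjusted p 0.0133). The other record (ENSMUSG00000102976.6) was at 24.6, 29.6 and 40.2 CPM at rest and 38.7, 32.5 and 43.3 CPM after KCl. The sum of both was 57.8, 55.2 and 65.3 CPM at rest and 48.7, 47.0 and 53.6 CPM after KCl. The groups did not overlap in the sum, but the difference was much smaller than in the called record. Reads shared by the 2 records could have been split differently between libraries, so the fall of the single record is uncertain.

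The knockout response was set against that of the non-targeting cultures, which keep Smarcc2. No gene was called for the difference (0% of genes tested, edgeR; 1845 at an unadjusted p under 0.05, 9 by DESeq2, and 448 by edgeR without the low-count filter, 185 higher and 263 lower). All 13 genes that rose in the knockout were also higher in both non-targeting KCl libraries than in both resting ones, as were 16.7% of all genes with these 2 against 2 libraries. The 8 early genes had larger log2 rises in the knockout, for example 4.11 against 3.17 for Fosb (difference 0.93, SE 0.513, adjusted p 0.615) and 2.34 against 1.73 for Egr1 (difference 0.61, SE 0.41, adjusted p 0.699). These 8 were picked by their call in the knockout, which favours large rises there, so the shared direction is no evidence of a stronger response. None of the 8 differences passed the test. The non-targeting KCl libraries themselves were uneven, at 135 and 51.9 CPM for Fosb and 53.3 and 13.1 CPM for Npas4.

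Pcp4 and Zc3h11a did not separate in the same way. Pcp4 was at 70.2 and 56.5 CPM in the resting non-targeting libraries and at 75.0 and 104 CPM after KCl, so both resting non-targeting libraries were below the lowest resting knockout library. Its log2 change was 0.50 there, against -1.0 in the knockout, a difference of -1.5 (SE 0.259, unadjusted p 1.68e-05, adjusted p 0.242, edgeR). Under DESeq2 the adjusted p of this difference was 0.000199, and over the 18 alternatives it ran from 3.89e-19 to 1. The called Zc3h11a record was at 22.9 and 23.0 CPM at rest and 23.1 and 25.8 CPM after KCl in the non-targeting cultures, and the difference of -1.37 had an adjusted p of 0.417 (0.0349 by DESeq2, 2.26e-08 to 1 over 18 alternatives). Wsb1 was at 17.7 and 18.3 CPM at rest and 22.8 and 20.3 CPM after KCl, a log2 change of 0.26 against 0.96 in the knockout (difference 0.70, SE 0.207, adjusted p 0.472). Sema4g was at 59 and 65.1 CPM at rest and 70.4 and 72.5 CPM after KCl in non-targeting cultures. Its difference in response was 0.275 (SE 0.13, adjusted p 0.564). At rest Wsb1 and Sema4g were lower in the knockout than in non-targeting cultures (log2 difference -0.567 and -0.385, adjusted p 0.0288 and 0.0182). After KCl they were not called (0.13 and -0.11, adjusted p 0.716 and 0.591). The other genes that rose were not called in this comparison at rest. None of the groups compared here shares a library.

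Adding back wild-type Smarcc2 to the knockout gave no called difference in response either (0%; 768 genes at an unadjusted p under 0.05, edgeR, 0 by DESeq2, and 116 by edgeR without the low-count filter, 65 higher and 51 lower). All 13 rises were again separated between the groups, as were 11.3% of all genes in that comparison of 3 against 2 libraries. The log2 rise was larger with vector in 4 of the 8 early genes and smaller in the other 4. For Fosb and Junb, counted as larger, the rises were nearly equal (difference 0.00376 and 0.000289). The wild-type KCl libraries were uneven, at 196.9, 105.6 and 32.7 CPM for Fos and 107.7, 46.8 and 16.8 CPM for Npas4. Npas4 had a log2 rise of 6.63 with wild-type and 5.60 with vector (difference -1.04, SE 1.34), and Fos of 4.52 and 3.80 (difference -0.72, SE 0.779). Pcp4 had a log2 change of -0.07 with wild-type (difference -0.93, SE 0.247, unadjusted p 0.00142), and Zc3h11a one of 0.15 (difference -1.42, SE 0.292, unadjusted p 0.000115). Both differences had an adjusted p of 1. Neither gene was lower without overlap in the non-targeting or the wild-type cultures, as 16.8% and 10.4% of all genes were. The added-back Smarcc2 RNA was not at the non-targeting level. The transcript form Smarcc2-203 had means of 472 CPM at rest and 542 CPM after KCl with wild-type, against 30.2 and 44.0 CPM in non-targeting cultures. Smarcc2-201 was also higher (256 and 285 against 71.4 and 70.8 CPM), and Smarcc2-202 lower (11.4 and 20.9 against 146 and 160 CPM).

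**Figure D4:**
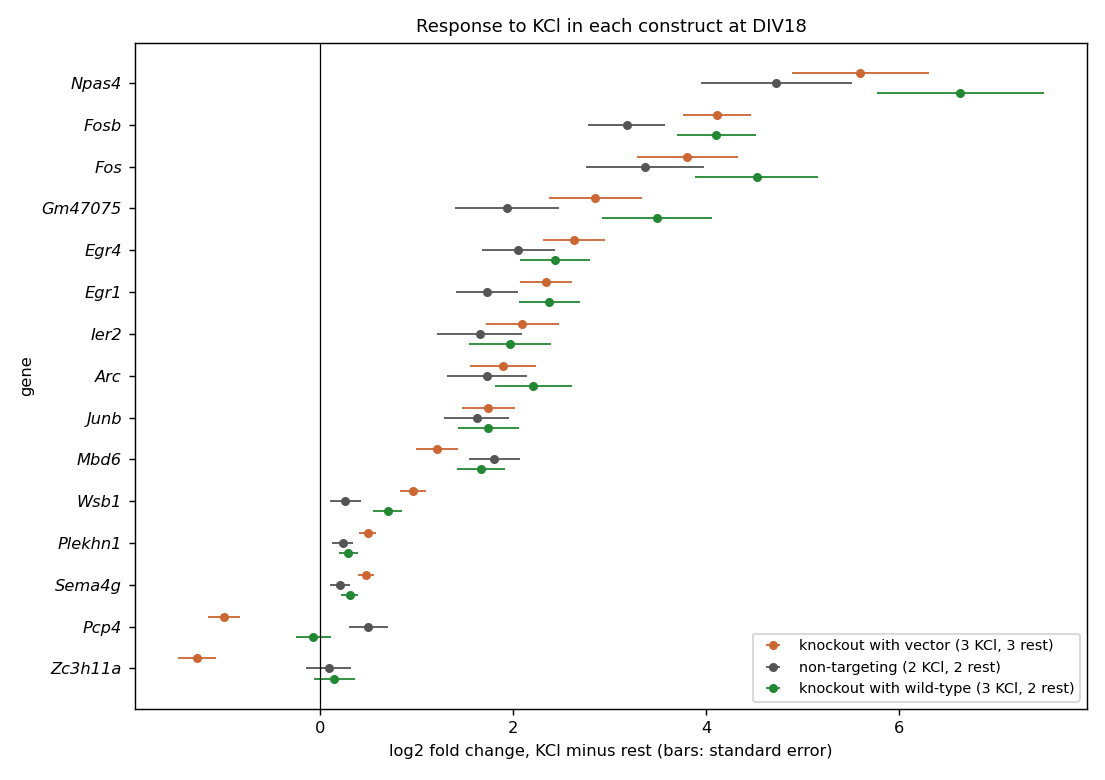
Log2 fold change between KCl and rest (x axis, bars show the standard error of the edgeR fit) for the 15 called genes in the Smarcc2 knockout with vector, the non-targeting cultures and the knockout with wild-type Smarcc2. Fosb is at 4.11 with vector and 3.17 in non-targeting cultures, and Pcp4 is at -1.0 with vector and 0.50 in non-targeting cultures. edgeR called no difference. DESeq2 called those of Pcp4 and Zc3h11a between vector and non-targeting cultures, and none between vector and wild-type.

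The DIV7 neurons, which were younger, unmodified and prepared with poly(A) selection, were fitted on their own. There 557 genes were called higher with a log2 change of at least 1 (2.81% of 19822 tested) and 521 lower (2.63%). Of the 557, 329 were also tested at DIV18, and 9 of them were called higher in the knockout, against 0.0621% of all genes. Their median log2 change in the knockout was 0.16, and 51 of the 329 (15.5%) had all KCl libraries above all resting ones, against 8.21% of all genes. Of the 478 tested genes that fell by at least 1 at DIV7 on the log2 scale, none was called in the knockout. The share called was 0.0716% over all genes, and the median of the 478 was -0.0227. Mbd6 and Plekhn1, called higher in the knockout, fell by less at DIV7 (log2 change -0.778 and -0.242, adjusted p 0.00124 and 0.0219). Wsb1, Sema4g and Gm47075 had log2 changes of 0.0844, 0.0312 and 2 there. The rise in the knockout was smaller than at DIV7 in 7 of the 8 early genes, for example 4.11 against 8.01 for Fosb and 1.74 against 4.99 for Junb on the log2 scale. Npas4 was the exception, at 5.60 against 5.40. Nr4a2 (4.37), Gadd45b (3.03), Nr4a3 (1.95) and Crem (1.87) had these log2 changes at DIV7 and log2 changes of 0.16, 0.20, 0.02 and 0.01 in the knockout. Txnip, a glucose-responsive inhibitor of thioredoxin, had a log2 change of -4.49 at DIV7 and of 0.45 in the knockout, where it was at 72.2, 97.0 and 79.1 CPM at rest and 114, 117 and 109.6 CPM after KCl without a call (adjusted p 0.355). Its log2 change at DIV18 was -0.441 in non-targeting and -0.167 in wild-type cultures. The knockout response of Txnip differed from the non-targeting one by 0.894 (SE 0.259, adjusted p 0.472). At rest Txnip was lower in the knockout than in non-targeting cultures (log2 difference -0.766, adjusted p 0.0174). Age, construct and RNA selection differ together between these experiments and cannot be told apart.

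Counts of single transcript forms are estimates that divide shared reads between forms, and no test was made on them. The DIV18 libraries came from total RNA, so unspliced RNA and finished RNA with a retained intron cannot be told apart here. The retained-intron form Fosb-204 went from 0.957, 1.38 and 1.64 CPM at rest to 70.2, 64.7 and 49.9 CPM after KCl. The coding form Fosb-201 went from 4.11, 4.33 and 6.19 CPM to 44.5, 50.8 and 29.5 CPM. Retained-intron forms therefore held 18.9, 23.9 and 20.9% of Fosb counts at rest and 57.5, 55.1 and 61.9% after KCl. In Npas4 the retained-intron form Npas4-202 was listed at 0, 0.5 and 0 CPM at rest and at 25.3, 23.7 and 20.4 CPM after KCl, above the coding form Npas4-201 at 8.80, 11.4 and 2.03 CPM. Its retained-intron share was 0, 72.8 and 0% at rest, from 9, 13 and 20 counts, and 60.1, 49.1 and 79.8% after KCl, so the shares overlapped and that of replicate 2 was lower after KCl. Fos-203, a processed form without a coding sequence, was at 0.291, 0 and 0 CPM at rest and 21.2, 21.4 and 13.3 CPM after KCl, beside 80.1, 89.4 and 37.2 CPM for the coding form. Over all genes the share of counts on retained-intron forms was 1.55, 1.87 and 1.88% at rest and 1.77, 1.68 and 2.05% after KCl, with overlap. In the non-targeting cultures retained-intron forms likewise held 54.0 and 55.8% of Fosb counts after KCl and 30.7 and 17.1% at rest.

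The forms of Homer1 differed. Homer1-202 was at 27.9, 25.3 and 32.6 CPM at rest and 41.4, 37.0 and 36.1 CPM after KCl, and Homer1-205 at 0.287, 0.625 and 0.412 CPM and 1.40, 1.36 and 1.58 CPM, both without overlap. The most abundant form, Homer1-203, was at 47.4, 45.5 and 56.6 CPM at rest and 45.3, 50.5 and 56.0 CPM after KCl. The forms of Crem and Bdnf that reached 5 counts on average showed no such separation in the abundant ones: Crem-230 was at 3.87, 3.45 and 1.95 CPM at rest and 3.84, 2.50 and 3.13 CPM after KCl, and Bdnf-205 at 5.90, 3.18 and 4.68 CPM and 2.62, 4.62 and 7.27 CPM. The scarce form Bdnf-206 was at 0.593, 0 and 0.498 CPM at rest and 0.725, 0.818 and 0.965 CPM after KCl, without overlap.

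**Figure D5:**
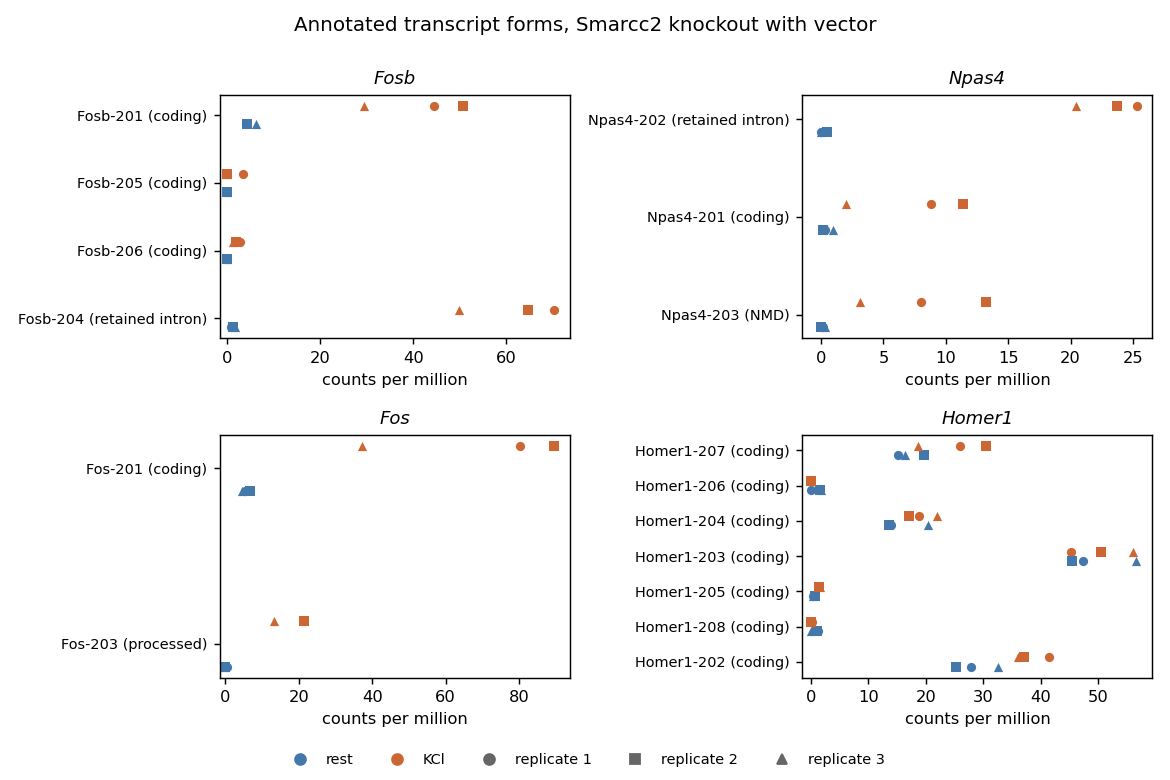
Level of the annotated transcript forms of Fosb, Npas4, Fos and Homer1 (x axis, CPM) in the 3 resting and 3 KCl libraries of the Smarcc2 knockout with vector (NMD, nonsense-mediated decay). Fosb-204 and Npas4-202, annotated with a retained intron, reach 70.2 and 25.3 CPM after KCl, and Homer1-203 overlaps between the states.

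Below the threshold, the 10 uncalled genes with the smallest p had adjusted p-values from 0.0673 to 0.102. Of these, 7 were higher: the helicase gene Dhx35, the efflux pump gene Abcc5, Zc3hav1l, the GTPase gene Rab34, Nr4a1, the CDK phosphatase gene Cdc25b and the lipid flippase gene Atp11b. Abcc5 was at 29.2, 40.0 and 38.9 CPM at rest and 57.0, 58.3 and 59.0 CPM after KCl. The 3 lower ones were Auts2 and Myt1l, regulators of neuronal development, and the cell cycle gene Rprm. Auts2 was at 167, 157 and 155 CPM at rest and 121, 122 and 119.7 CPM after KCl, and Myt1l at 478, 422 and 448 CPM and 351, 339 and 313 CPM. Neither overlapped between the groups, and neither was called (adjusted p 0.0674 and 0.0877). Of the 5 largest falls without overlap at an unadjusted p under 0.01, only Zc3h11a was called; the histone gene Hist1h2bn (-1.27), which has close copies, the RNA gene Dancr (-1.60), Btbd17 (-1.05) and Rab7b (-1.08) had adjusted p-values of 0.262 to 0.335.

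In the lists that follow, counts at an unadjusted p under 0.05 are to be read against 5.47% of all genes higher and 4.88% lower at that p. Counts of called members are to be read against 0.0716% of all genes called, so lists of this size can hold no call without differing from other genes. The calcium and kinase machinery that carries the depolarization signal had no called member among 22, with a median of -0.11. Elk1, a partner of serum response factor, was at 131, 112 and 99.9 CPM at rest and 91.3, 96.5 and 87.1 CPM after KCl (adjusted p 0.366), and the calmodulin genes Calm3 (log2 change -0.27) and Calm2 (-0.22) were also lower at an unadjusted p under 0.05. Of the 28 BAF subunits none was called and the median was -0.0754. Bcl7a, Smarce1 and Smarcd3 were lower (-0.24, -0.25 and -0.34) and Phf10 and Bcl7c higher (0.24 and 0.40) at an unadjusted p under 0.05. Of the 20 glutamate receptors and potassium channels none was called. There Kcna1, Kcnq3, Grin2a, Gria4 and Gria1 were lower at that p, with log2 changes between -0.41 and -0.18. Kcna1, a voltage-gated potassium channel, was at 157, 136 and 119.1 CPM at rest and 108, 110.5 and 92.7 CPM after KCl. Of the 12 heat shock and unfolded protein response genes, the chaperone gene Dnajb1 (0.63) and the stress factor Atf4 (0.32) were higher and Hsp90ab1 (-0.22) lower at that p, with none called. In the list of Notch, Id and thioredoxin-interacting genes, Arrdc3 (-0.34) and Id2 (-0.58) were lower and Txnip and Id4 (0.50) higher at that p, again with none called.

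Gfap was at 169.6, 132 and 37.3 CPM at rest and 38.9, 65.3 and 49.7 CPM after KCl, so resting replicate 3 lay with the KCl libraries (log2 change -1.14, adjusted p 0.463). The water channel gene Aqp4 behaved alike, at 11.4, 11.8 and 1.97 CPM at rest and 0.461, 2.25 and 2.54 CPM after KCl (adjusted p 0.307). The glutamate transporter gene Slc1a2 was at 931, 714 and 822 CPM and 635, 640.0 and 739.8 CPM (adjusted p 0.387). The 8 astrocyte markers had a median log2 change of -0.425. The summed myelinating oligodendrocyte markers were even at rest, at 137.9, 141.3 and 136.4 CPM, and lower in every KCl library, at 111.0, 130.6 and 116.7 CPM. The summed microglia markers were low, at 3.55, 3.80 and 3.82 CPM at rest, and higher in every KCl library, at 4.66, 5.81 and 5.28 CPM. Fewer cells of a type and less RNA per cell cannot be told apart in these bulk libraries. Oligodendrocyte precursor markers were low, with Olig2 at 10.3, 6.38 and 2.67 CPM at rest and 2.87, 1.90 and 1.82 CPM after KCl, and Sox10 had no counts at rest, below floors of 0.158 to 0.191 CPM for 3 counts, and 0.0512, 0.296 and 0.0652 CPM after KCl. All 10 neuron markers had negative log2 changes, with a median of -0.132, and the tubulin gene Tubb3 was at 401, 306 and 399.7 CPM at rest and 264, 266 and 299.6 CPM after KCl (adjusted p 0.322). All 13 mitochondrial genome transcripts had negative changes too, with a median of -0.368, but 0 of them were lower without overlap. Their sum was 37446, 29384 and 54564 CPM at rest and 34594, 30835 and 36066 CPM after KCl, so resting replicate 3 stood out. The cytochrome oxidase gene mt-Co2 was at 489, 499 and 1273 CPM at rest and 336, 389 and 517 CPM after KCl, and mt-Co3, mt-Nd1 and mt-Nd2 were also lower at an unadjusted p under 0.05. No member of these lists was called, against 0.0716% of all genes.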

How the data were processed

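RNA-seq was analysed from 24 libraries of cultured mouse cortical neurons, 6 of them Smarcc2 knockout with vector. The authors deposited transcript tables with estimated counts, TPM and effective length, per the file headers; FastQC, cutadapt and kallisto are named in the submitters' processing notes, and versions, annotation and use of strand are not given in the sources used here. The TPM values deposited by the authors were not tested. The effective length, another deposited column, served only for length offsets. Of 142552 transcripts, 141429 (99.2%) matched GENCODE M21 (GRCm38); the rest held at most 0.467% of a library's counts and were left out. For each gene the counts of its transcripts were added and rounded. DIV18 libraries totalled 14510199 to 24024959.

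edgeR 4.0.16 in R 4.3.3 tested all 20 DIV18 libraries in 8 groups (quasi-likelihood F test, two-sided, TMM, filterByExpr, Benjamini-Hochberg over 20940 genes, 12 residual degrees of freedom, common biological coefficient of variation 14.6%); the DIV7 libraries were fitted alone. A call is an adjusted p under 0.05. Every adjusted p without another tool named is from edgeR. The test was checked on simulated data. DESeq2 1.42.0, other filters, size factors, length offsets, a replicate block and leaving out each library were alternatives. The main fit used the group only and did not pair the libraries. Same-numbered knockout cultures of the 2 states deviated together (r = 0.168, 0.178 and 0.313 over 15135 genes). However, resting replicate 1 correlated as closely with KCl replicate 2 (r = 0.176). Among the tests, their numbers were treated as pairs only in the alternatives with a replicate block. The ratios given for Npas4 also matched libraries by number, although the labels do not state a shared embryo.

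The members and lists were chosen with earlier results of these data known. The named genes are Smarcc2 and Clca1, all called genes, list members by p or by separation with a log2 change of at least 1, the 10 next by p and the 5 largest rises and falls with a mean of at least 1 CPM; other names illustrate list values and were chosen after their values were seen. The forms of called genes other than Fosb were also added after seeing the data.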

Additional observations from a re-analysis of the deposited data

How the results depend on the processing

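The count of genes called between KCl and rest in the knockout with vector, 15, was 14 with median-of-ratios size factors, 13 with length offsets and 15 when only the knockout groups were fitted. It was 48 with DESeq2, 515 without the low-count filter (226 higher, 289 lower), 9 with the replicate block and 9 with the replicate block and length offsets. Leaving out 1 library gave 5 to 10 calls, with 5 without resting replicate 1, 7 without resting replicate 3, and 6 and 7 without KCl replicates 1 and 2. Without replicate 3 in both states, an alternative chosen after seeing the data, 6 genes were called, 5 of them among the 15. Fosb, Egr1, Egr4 and Npas4 were called in all 14 alternatives, Fos and Wsb1 in 13, Zc3h11a in 10, Junb in 8, Pcp4, Gm47075 and Ier2 in 6, Sema4g, Mbd6 and Arc in 5 and Plekhn1 in 2. None of the 15 changed direction. For the difference from the non-targeting response, 0 became 9 with DESeq2, 448 without the low-count filter and 1 when only the compared groups were fitted, and leaving out 1 library gave 0 to 1. For the difference from the wild-type response, 0 became 116 without the low-count filter. The cause was not tested. The replicate block left 0 calls in both differences. The non-targeting numbers correlated at -0.123, and with them crossed, chosen after seeing the data, the replicate block also gave 0 calls. Of 698 values of 50 uncalled named genes, 648 kept their direction and their side of the threshold and 45 passed it; the 5 that changed sign were Smarcc2 (0.106 without resting replicate 3, 0.00369 and 0.023 without KCl replicates 1 and 2; -0.15 to 0.106 over all single libraries) and Clca1 (-0.362 without resting replicate 1, -0.284 without KCl replicate 3; -0.362 to 0.64 over all single libraries). Where an arm was left with few libraries its spread was assumed to equal that of the other groups.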
